A study of Mus musculus with 10 samples.

Results

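Motile cilia are the beating projections of the multiciliated cells that line the airways, and the genes that build them were examined in lung squamous cell carcinoma (SCC) and in normal lung of mice. A list of 36 genes was used, and rows were taken by gene symbol from a table of read counts for 24421 genes. A row was found for 35 of the 36, of which 2, Dnai1 and Dnai2, stood under the older symbols Dnaic1 and Dnaic2. No counts of Cdhr4 are analysed here, and its promoter is among those read for motifs below. The list follows the role of the genes in the cilium, and no measured value set which genes are in it. Earlier results of these data were known when the genes and the split of the SCC libraries used below were chosen.

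A motile cilium is built on a ring of doublet microtubules around a central pair. Outer and inner dynein arms on the doublets use ATP to slide neighbouring doublets, radial spokes and the central pair apparatus time this sliding, and nexin links turn it into bending. Airway epithelial cells make many cilia each under a programme started by Mcidas and driven by the transcription factors Foxj1 and Rfx3, and loss of many of the structural genes causes primary ciliary dyskinesia in humans.

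Libraries of total RNA were made from regions cut by laser out of fixed, paraffin-embedded lung sections, in 2 groups of 5. The first group came from SCC of mice treated with NTCU, a nitrosourea carcinogen that gives squamous lung tumours in mice. The second came from normal lung of mice with no treatment. All animals were of the NIH Swiss strain with the genotype wt, and no age is given in the labels. Libraries are called SCC 1 to SCC 5 and normal 1 to normal 5, where SCC 2 and SCC 5 carry the codes D39 and E57. Which animal each library came from is not in the labels. The p-values therefore measure only how these libraries spread, which can be technical, and they are too small if libraries share an animal. In such bulk samples, fewer ciliated cells and less ciliary RNA per cell cannot be told apart.

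Total counts ran between 1004105 and 3691806 in SCC and between 1457641 and 6817106 in normal lung. Summed over the 8 squamous and basal markers the level was 771 to 5500 CPM, a library's counts scaled to a common total, in SCC and 1.07 to 8.23 CPM in normal lung, where Krt6a, Krt13, Dsg3 and Sprr1a had no count. The 10 alveolar markers summed to 721 to 1726 CPM in SCC and 8604 to 12330 CPM in normal lung. Counts on odorant and vomeronasal receptor genes, which lung does not use, differed between the libraries. This receptor signal stood at 3.22, 0.586, 3.25, 3.46 and 0.413 CPM per kb of coding length in SCC 1 to SCC 5, against 0.0399, 0.153, 0.0416, 0.0666 and 0.199 in normal 1 to normal 5. All 5 SCC libraries lay above all 5 normal ones (exact two-sided permutation p = 0.00794, the smallest that 252 relabelings can give, n = 5 each). Both SCC 2 and SCC 5 had far less of it than SCC 1, SCC 3 and SCC 4, and they are also given apart below.

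The promoters of the genes that fell in SCC or in SCC 2 and SCC 5 are shown first, because these genes passed the test in the same direction and a shared motif can be read in them. They run 5′ to 3′ on the gene's strand, with 250 bases before and 50 bases after the annotated start. RefSeq, build GRCm38.p6, gave the sequences, and Tppp3 and Rsph1 are not shown. Capitals mark GTTNCC on either strand (GGNAAC on the other), the core of the motif bound by RFX factors.

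Cdhr3, chr12:33092826-33093125, minus strand: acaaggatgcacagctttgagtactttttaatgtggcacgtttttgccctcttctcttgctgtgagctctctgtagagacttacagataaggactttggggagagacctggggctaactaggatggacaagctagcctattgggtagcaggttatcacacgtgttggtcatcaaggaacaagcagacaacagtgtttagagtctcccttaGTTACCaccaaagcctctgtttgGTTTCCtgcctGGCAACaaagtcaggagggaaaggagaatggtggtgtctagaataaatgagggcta
Spag16, chr1:69826720-69827019, plus strand: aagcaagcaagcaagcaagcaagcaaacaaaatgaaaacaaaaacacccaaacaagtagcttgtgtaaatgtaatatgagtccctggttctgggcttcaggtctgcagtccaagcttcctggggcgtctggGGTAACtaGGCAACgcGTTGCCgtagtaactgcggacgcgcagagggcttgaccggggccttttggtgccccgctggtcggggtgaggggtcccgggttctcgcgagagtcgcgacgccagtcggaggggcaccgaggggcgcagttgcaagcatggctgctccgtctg
Ccdc39, chr3:33844261-33844560, minus strand: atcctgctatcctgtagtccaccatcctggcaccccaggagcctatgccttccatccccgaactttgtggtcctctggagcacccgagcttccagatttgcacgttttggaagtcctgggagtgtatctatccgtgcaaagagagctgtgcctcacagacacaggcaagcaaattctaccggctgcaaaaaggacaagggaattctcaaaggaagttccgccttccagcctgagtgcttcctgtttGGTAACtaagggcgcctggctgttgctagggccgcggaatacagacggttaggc
Dnah5, chr15:28203516-28203815, plus strand: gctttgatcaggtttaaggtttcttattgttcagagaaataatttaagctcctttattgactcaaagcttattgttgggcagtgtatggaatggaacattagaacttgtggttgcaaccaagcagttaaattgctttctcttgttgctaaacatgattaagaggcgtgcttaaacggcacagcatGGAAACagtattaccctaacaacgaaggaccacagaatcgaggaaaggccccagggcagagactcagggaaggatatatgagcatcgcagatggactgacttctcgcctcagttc
Dnah9, chr11:66168502-66168801, minus strand: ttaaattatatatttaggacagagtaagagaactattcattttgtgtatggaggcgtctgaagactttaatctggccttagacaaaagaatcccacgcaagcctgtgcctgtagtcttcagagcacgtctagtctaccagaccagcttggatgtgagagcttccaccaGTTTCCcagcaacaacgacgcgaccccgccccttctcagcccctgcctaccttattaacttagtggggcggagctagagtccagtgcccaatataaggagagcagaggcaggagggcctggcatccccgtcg
Tmem212, chr3:27896319-27896618, minus strand: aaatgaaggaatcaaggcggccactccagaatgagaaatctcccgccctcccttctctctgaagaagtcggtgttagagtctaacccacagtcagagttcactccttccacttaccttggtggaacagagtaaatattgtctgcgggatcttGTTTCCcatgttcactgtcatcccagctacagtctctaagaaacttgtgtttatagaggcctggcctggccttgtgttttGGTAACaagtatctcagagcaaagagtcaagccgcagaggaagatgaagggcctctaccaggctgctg

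Each of these windows held GTTNCC or its reverse complement at least once, and those of Spag16 and Cdhr3 held it 3 times. Over the 38 windows of the 32 listed genes with an entry, 32 windows (84.2%) held it, against 14896 of 32851 windows of all genes (45.3%). An arrangement of GTTNCC followed by GGNAAC with at most 3 bases between, which counts as 2 matches of the first motif, was present in 2 of the 38 windows (5.26%), those of Fam183b and 1110017D15Rik, against 264 of all windows (0.804%). The forkhead motif TGTTTAC, read on both strands, was present in 2 of the 38 windows (5.26%), those of Ak7 and Cfap43, against 1199 of all windows (3.65%). A match describes letters in the window only, and binding was not measured.

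Summed over the 35 genes, the level was 1029, 442, 971, 1093 and 309 CPM across SCC 1 to SCC 5, against 946, 848, 1042, 896 and 1000 CPM in normal 1 to normal 5. SCC 2 and SCC 5 lay below each normal library, and SCC 1, SCC 3 and SCC 4 lay within the normal range or just above it. The mean of SCC 2 and SCC 5 was 0.397 times the normal mean, while that of the other 3 SCC libraries was 1.09 times it. The level that the receptor signal would give over the exon length of these genes was 491, 89.2, 495, 526 and 62.8 CPM across SCC 1 to SCC 5, and 6.07 to 30.3 CPM in normal lung. After taking it off, the summed level was 538, 353, 476, 566 and 246 CPM across SCC 1 to SCC 5, against 940, 824, 1036, 886 and 970 CPM in normal 1 to normal 5. All 5 SCC libraries then lay below all 5 normal libraries, with means of 436 ± 134 CPM in SCC and 931 ± 80.7 CPM in normal lung (SD, n = 5 each). These levels stay scaled to each library's full count total. Over all genes the same estimate would make up 24.8, 4.52, 25.1, 26.6 and 3.18% of that total in SCC 1 to SCC 5. In normal lung its share would be 0.31 to 1.5%. Scaled to the remaining counts, SCC 1, SCC 3 and SCC 4 would therefore stand nearer to normal lung. How far the receptor signal carries over to other genes was not tested. For some of these genes it would give more than the counts present, as given below.

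**Figure D1:**
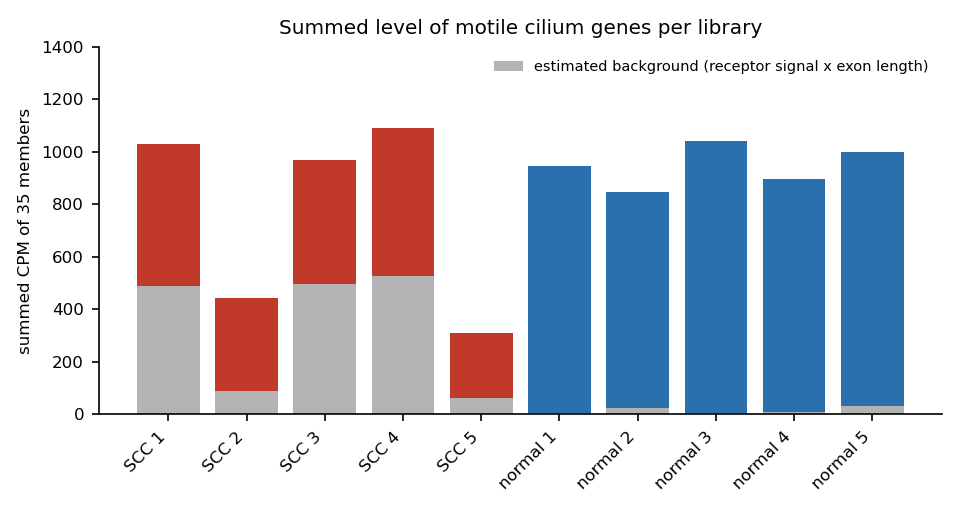
Summed CPM of the 35 genes in each library, SCC bars on the left in red and normal lung bars on the right in blue; the grey foot of each bar is the level that receptor signal times exon length would give. The bars of SCC 2 and SCC 5 reach 442 and 309 CPM, while each other bar stands at 848 CPM or more.

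With all 10 libraries, 28 of the 35 genes passed the filter on low counts, and 4 were lower and 0 higher in SCC by edgeR's quasi-likelihood test at a Benjamini-Hochberg adjusted p under 0.05. Of all 13203 genes tested, 8.68% were lower and 12.5% were higher. At an unadjusted p under 0.05 edgeR put 5 of the 28 lower and 1 higher, against 13.6% lower and 18.8% higher of all genes. The DESeq2 Wald test gave an adjusted p to all 35 genes and called 5 lower and 3 higher, against 5.99% lower and 27.5% higher of 22832 genes. The median log2 fold change of the 28 was -0.49, against 0.07 over all genes tested. Of the 28, 18 were below 0, against 6262 of the 13203 genes. The 4 genes were Tppp3, Cdhr3, Spag16 and Rsph1. When SCC 2 and SCC 5 alone were set against normal lung, 32 of the 35 genes were tested, and 7 were lower and 0 higher, against 5.16% lower and 4.14% higher of 14305 genes. The 7 were Tppp3, Cdhr3, Spag16, Ccdc39, Dnah5, Dnah9 and Tmem212. The median of the 32 was -2.43 (the same with Tmem212 at its bound, given below), against 0.01 over all genes tested. Of the 32, 31 were below 0, against 7131 of the 14305 genes. At an unadjusted p under 0.05 edgeR put 19 lower and 0 higher, against 11.7% lower and 10.5% higher of all genes. The DESeq2 Wald test called 15 of 34 genes lower and 0 higher after adjustment, against 6.94% lower and 5.31% higher of 15972 genes.

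With SCC 1, SCC 3 and SCC 4 alone against the same normal libraries, 31 of the 35 genes were tested, 5 were lower and 3 higher, against 18.9% lower and 24.7% higher of 15520 genes. The median of the 31 was -0.04. Lower were Tppp3, Cdhr3, Spag16, Rsph1 and Rfx3, and higher were Mcidas, Ccdc40 and Tekt2. Both comparisons share their normal libraries. The difference between the 2 sets of SCC libraries was tested in 1 fit, in which 3 of 35 genes were lower and 0 higher in SCC 2 and SCC 5, against 2.09% lower and 10.3% higher of 18959 genes. At an unadjusted p under 0.05 edgeR put 11 lower and 0 higher there, against 10.7% lower and 18.4% higher of all genes. Dnah9 (log2 fold change -2.09, SE 0.59, edgeR adjusted p = 0.0171), Dnah5 (-1.73, SE 0.58, edgeR adjusted p = 0.0454) and Spag16 (-3.76, SE 1.04, edgeR adjusted p = 0.0155) were lower. The mean CPM was lower in SCC 2 and SCC 5 than in SCC 1, SCC 3 and SCC 4 for 33 of the 35 genes, with Tppp3 and Rsph1 as the exceptions. In the fit of both sets 30 of the 35 had a log2 fold change below 0, against 10124 of the 18959 genes. The receptor signal was higher in SCC 1, SCC 3 and SCC 4, as given above. With no filter on low counts all 35 genes were tested, and with all libraries 8 were lower and 2 higher, against 9.04% lower and 23.9% higher of 22919 genes. The median of the 35 was then -0.92, against 0.71 over all genes. With SCC 2 and SCC 5 and no filter 7 were lower and 0 higher, against 4.34% lower and 4.18% higher of 21941 genes, and at an unadjusted p under 0.05 edgeR put 21 lower and 1 higher, against 8.55% lower and 12.9% higher of all genes.

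**Figure D2:**
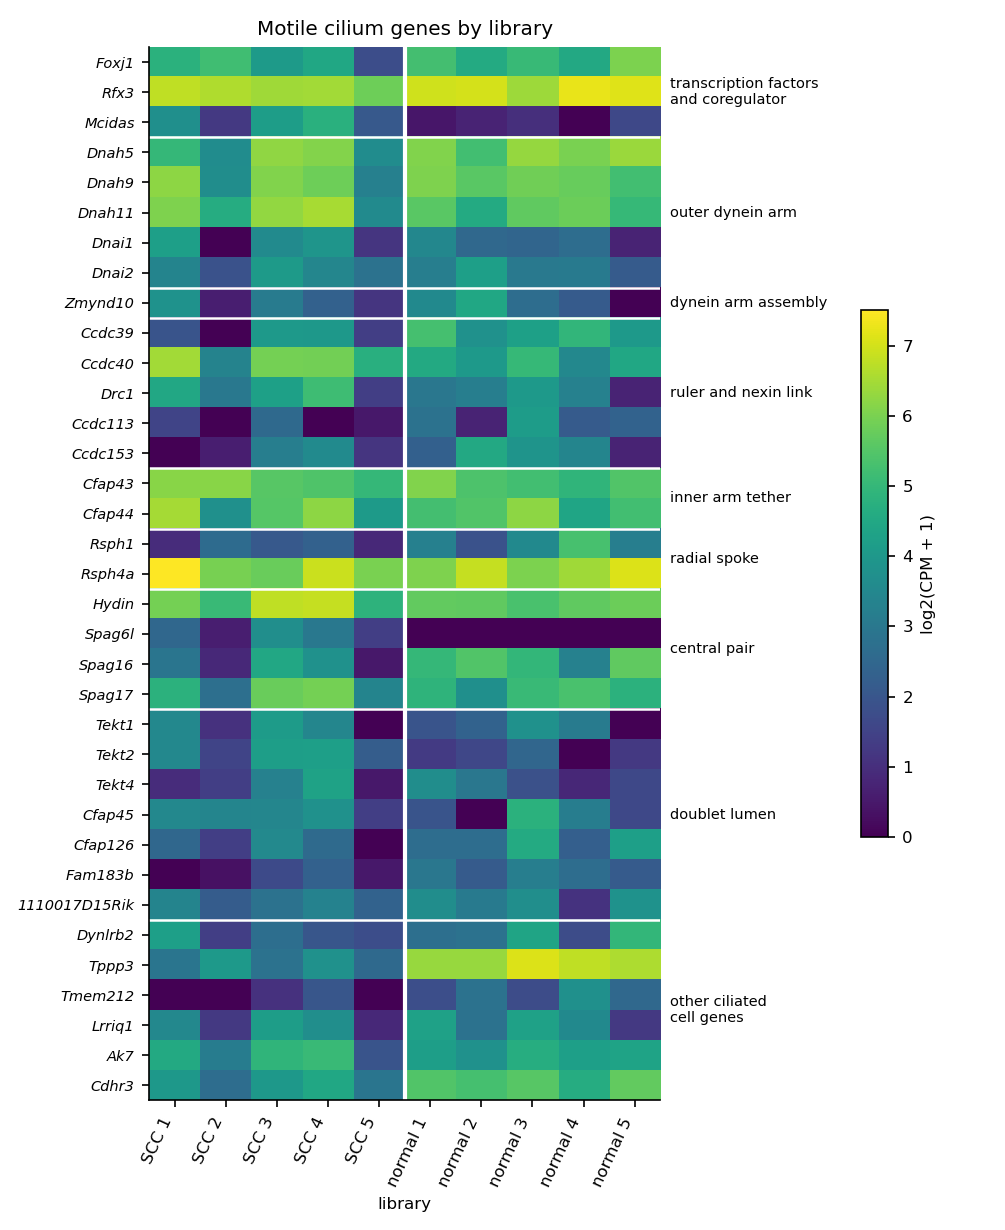
Level of each of the 35 genes, as log2(CPM + 1), in the 5 SCC libraries on the left and the 5 normal libraries on the right, ordered by the structure they belong to. The columns of SCC 2 and SCC 5 are the darkest of the SCC columns for most structural genes, with SCC 5 lowest in SCC for 17 genes and SCC 2 for 14, and Tppp3 is dark in all 5 SCC columns.

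Without regard to a model, 2 of the 35 genes, Tppp3 and Cdhr3, had all SCC libraries under all normal ones, against 3.34% of the 22919 genes with a count. The reverse held for 1, Spag6l, against 11.8%. SCC 2 and SCC 5 both lay under the normal range for 16 of the 35, against 6.56% of all genes, and both above it for 1, Spag6l, against 18.1%.

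Of the regulators of the ciliary programme, 0 of the 2 tested, Foxj1 and Rfx3, were called by edgeR with all libraries or with SCC 2 and SCC 5. At an unadjusted p under 0.05 edgeR put 0 and 1 of them lower in these comparisons, and 0 higher. Foxj1, the forkhead factor that switches on motile cilium genes, stood at 26.4, 35.5, 16, 20.9 and 2.45 CPM across SCC 1 to SCC 5, against 37.6, 23.2, 32.1, 22 and 63.8 CPM in normal 1 to normal 5. SCC 1 and SCC 2 lay within the normal range, so the groups overlapped. SCC 3 and SCC 4 lay under each normal library, and SCC 5 far under. With all libraries the log2 fold change was -0.97 (SE 0.55, edgeR adjusted p = 0.233), and it was -1.08 (SE 0.76, edgeR adjusted p = 0.449) with SCC 2 and SCC 5. With all libraries and no filter on low counts Foxj1 was lower (-1.33, SE 0.55, edgeR adjusted p = 0.0484). In that fit the median log2 fold change over all genes was 0.71, against 0.07 with the filter. The receptor signal over its exons would give 43.0% of its counts in SCC 1, SCC 3 and SCC 4. Rfx3, which acts beside Foxj1 through the RFX motif printed above, stood at 108, 95.9, 85.9, 87.6 and 56.8 CPM across SCC 1 to SCC 5, against 124, 129, 83.5, 150 and 140 CPM in normal 1 to normal 5. The groups overlapped through normal 3 only, and the log2 fold change was -0.67 (SE 0.34, edgeR adjusted p = 0.178) with all libraries. With SCC 1, SCC 3 and SCC 4 alone Rfx3 was lower (-0.79, SE 0.31, edgeR adjusted p = 0.0441).

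Mcidas, the coregulator that starts multiciliation, stood at 12.3, 1.35, 17.1, 25.9 and 3.27 CPM across SCC 1 to SCC 5, against 0.358, 0.684, 1.03, 0 and 2.06 CPM in normal 1 to normal 5. It held 12 counts over all normal libraries, and SCC 2 alone overlapped with normal lung. It did not pass the filter with all libraries, and with SCC 1, SCC 3 and SCC 4 alone it was higher by 4.11 (SE 0.99, edgeR adjusted p = 0.00199). The receptor signal over its exons would give 43.5% of its counts in SCC 1, SCC 3 and SCC 4, and 58.0% of its 13 counts in SCC 2 and SCC 5.

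In the outer dynein arm, the motor that sets beat frequency, the heavy chains Dnah5 and Dnah9 were lower in SCC 2 and SCC 5. Dnah5, the heavy chain present along the whole axoneme, stood at 31.1, 11.7, 75.4, 68.7 and 11.4 CPM across SCC 1 to SCC 5, against 67.3, 36.2, 79.1, 62.5 and 82.3 CPM in normal 1 to normal 5. SCC 1, SCC 2 and SCC 5 lay under each normal library and SCC 3 and SCC 4 among them. Its log2 fold change was -2.62 (SE 0.56, edgeR adjusted p = 0.00365) with SCC 2 and SCC 5, and -0.86 (SE 0.48, edgeR adjusted p = 0.227) with all libraries. Dnah9, the heavy chain of the distal part of the cilium, stood at 73.5, 11.9, 66.1, 56.8 and 8.57 CPM across SCC 1 to SCC 5, against 65.1, 46.5, 58.2, 53.6 and 36.4 CPM in normal 1 to normal 5. Both SCC 2 and SCC 5 lay under each normal library and the other 3 SCC libraries did not. With SCC 2 and SCC 5 the log2 fold change was -2.47 (SE 0.59, edgeR adjusted p = 0.00843), a call lost without SCC 5 (edgeR adjusted p = 0.0741). The receptor signal over their exons would give 83.7% of the Dnah5 counts and 72.9% of the Dnah9 counts in SCC 1, SCC 3 and SCC 4. In SCC 2 and SCC 5 it would give 69.9% for Dnah5 and 71% for Dnah9. Its part in these calls was not tested.

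The third heavy chain, Dnah11, stood at 53.8 ± 34.7 CPM in SCC and 41.4 ± 13.4 CPM in normal lung (SD, n = 5 each), with a log2 fold change of -1.38 (SE 0.61, edgeR adjusted p = 0.179) in SCC 2 and SCC 5. Dnai1 averaged 8.82 ± 7.89 CPM in SCC, with no count in SCC 2, and 5.06 ± 3.33 CPM in normal lung (SD, n = 5 each). The receptor signal would give 61.3% of its counts in SCC 1, SCC 3 and SCC 4. Dnai2 averaged 8.84 ± 4.93 CPM in SCC and 8.79 ± 5.35 CPM in normal lung (SD, n = 5 each). Neither Dnai1 nor Dnai2 was called in any of the 3 comparisons with normal lung. Summed over the 5 outer arm genes, the level was 197, 50.4, 246, 241 and 38.4 CPM across SCC 1 to SCC 5 and 129 to 199 CPM in normal lung. Less the level that the receptor signal would give, it was 36.1, 21.1, 83.1, 68.4 and 17.8 CPM across SCC 1 to SCC 5 and 121 to 196 CPM in normal lung. These levels too stay scaled to each library's full count total.

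Zmynd10, a factor that helps fold dynein arms in the cytoplasm before they enter the cilium, stood at 13.2, 0.542, 7.71, 3.98 and 1.23 CPM across SCC 1 to SCC 5, against 10.7, 21.2, 5.43, 3.47 and 0 CPM in normal 1 to normal 5. The groups overlapped widely and the change was not called (log2 fold change -0.78, SE 0.99, edgeR adjusted p = 0.639 with all libraries). With SCC 2 and SCC 5 the log2 fold change was -3.28 (SE 1.57, edgeR adjusted p = 0.22).

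Ccdc39 and Ccdc40 together form the ruler that sets the spacing of spokes and dynein arms along the doublet. Ccdc39 stood at 2.83, 0, 15.4, 14.9 and 1.63 CPM across SCC 1 to SCC 5, against 38.3, 13.0, 18.0, 29.7 and 15.8 CPM in normal 1 to normal 5. SCC 1, SCC 2 and SCC 5 lay below each normal library, and no count in SCC 2 allows a level of up to 0.813 CPM (3 counts, counting error only). With SCC 2 and SCC 5 it was lower by a log2 fold change of -4.97 (SE 1.22, edgeR adjusted p = 0.0101), a call lost without SCC 2 (-3.84, edgeR adjusted p = 0.07). With all libraries the log2 fold change was -1.88 (SE 0.83, edgeR adjusted p = 0.115), and Ccdc39 shares exon sequence with Ttc14 on the other strand, whose reads cannot be told apart where strand was not used in counting.

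Ccdc40 stood at 86.7, 9.21, 60.0, 58.8 and 25.7 CPM across SCC 1 to SCC 5, against 22.6, 15.7, 31.4, 10.4 and 21.3 CPM in normal 1 to normal 5. SCC 1, SCC 3 and SCC 4 lay above each normal library, SCC 2 below each, and SCC 5 among them. With SCC 1, SCC 3 and SCC 4 it was higher (log2 fold change 1.39, SE 0.44, edgeR adjusted p = 0.0135), and the receptor signal would give 25.7% of those counts. With SCC 2 and SCC 5 the log2 fold change was -0.30 (SE 0.74, edgeR adjusted p = 0.873). The nexin link gene Drc1 and the coiled-coil genes Ccdc113 and Ccdc153 averaged 8.05, 6.25 and 9.96 CPM in normal lung and 16.7, 1.45 and 4.20 CPM in SCC. They were called in no comparison with normal lung. With SCC 2 and SCC 5 their log2 fold changes were -1.06 (SE 1.16), -4.95 (SE 1.84) and -3.60 (SE 1.43). The edgeR adjusted p-values there were 0.668, 0.1 and 0.129.

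**Figure D3:**
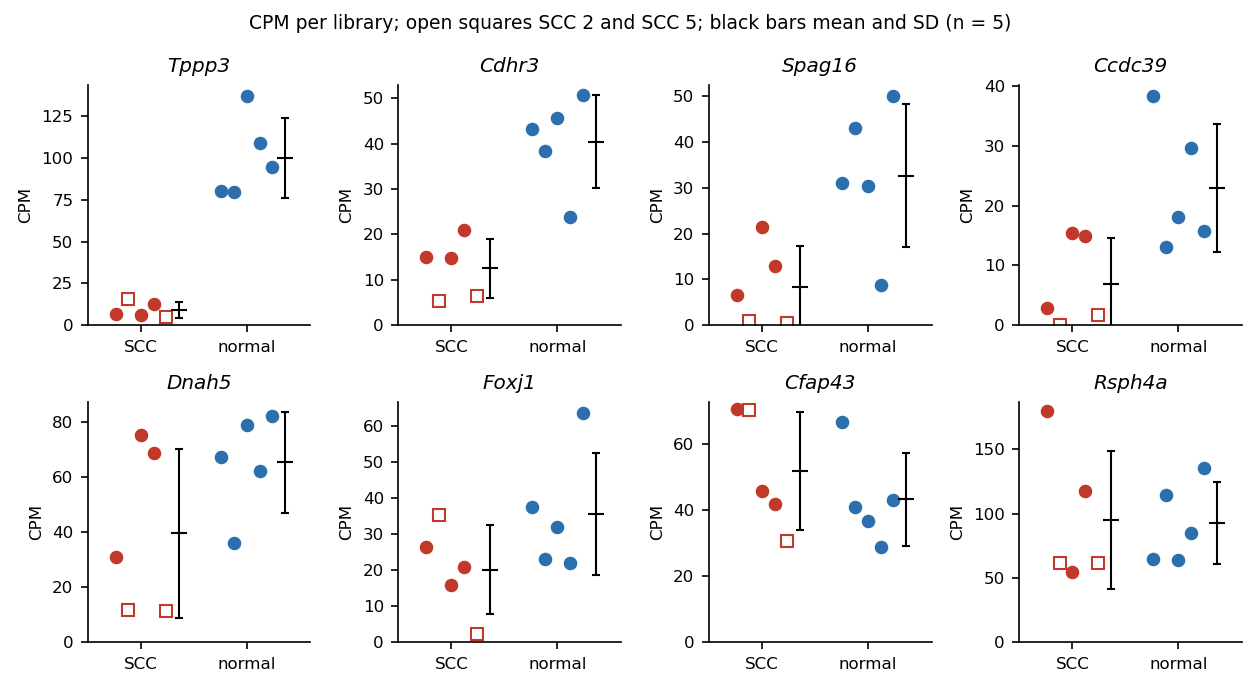
CPM in each library for 8 genes, with SCC on the left of each panel in red and normal lung on the right in blue; open squares are SCC 2 and SCC 5, and black bars are the mean and SD of 5 libraries, drawn down to 0 at most. Tppp3 and Cdhr3 separate the groups with no overlap, Spag16, Ccdc39 and Dnah5 are lowest in SCC 2 and SCC 5, and Foxj1, Cfap43 and Rsph4a overlap.

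Cfap43 and Cfap44 tether the motor head of an inner dynein arm to the doublet. Cfap43 stood at 70.7, 70.2, 45.7, 41.8 and 30.6 CPM across SCC 1 to SCC 5, against 66.6, 41.0, 36.8, 28.9 and 43.2 CPM in normal 1 to normal 5. The groups overlapped throughout, with SCC 1 and SCC 2 above each normal library and the other 3 within their range. Its log2 fold change was 0.14 (SE 0.39, edgeR adjusted p = 0.853) with all libraries and 0.08 (SE 0.51, edgeR adjusted p = 0.953) with SCC 2 and SCC 5, where the receptor signal would give 5.73% of its counts. Its partner Cfap44 stood at 88.6, 12.5, 45.1, 73.7 and 15.9 CPM across SCC 1 to SCC 5, and at 20.1 to 73.5 CPM in normal lung, and was not called.

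Of the radial spoke head genes, Rsph1 was lower in SCC and Rsph4a was not called. Rsph1 stood at 0.943, 5.15, 3.30, 3.98 and 0.817 CPM across SCC 1 to SCC 5, against 8.59, 2.73, 10.7, 39 and 8.23 CPM in normal 1 to normal 5. Normal 4 was far above the other normal libraries, and normal 2 lay among the SCC libraries. The log2 fold change was -2.42 (SE 0.87, edgeR adjusted p = 0.0471), a call lost without SCC 1, SCC 3, SCC 4 or SCC 5 (edgeR adjusted p up to 0.0922). Rsph1 did not pass the filter, and so was not tested, without normal 1, normal 3 or normal 4 or after the subtraction of the receptor signal described below, and the call held without normal 2, normal 5 or SCC 2. With the receptor signal as a covariate Rsph1 was not called, while Tppp3, Cdhr3 and Spag16 still were. Its log2 fold change was then -1.80 (edgeR adjusted p = 0.668). In SCC 2 and SCC 5, without the covariate, the log2 fold change was -2.38 (SE 1.18, edgeR adjusted p = 0.242).

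Rsph4a, the most abundant spoke head gene here, stood at 180, 61.8, 54.5, 118 and 62.1 CPM across SCC 1 to SCC 5, against 64.8, 114, 63.8, 85.3 and 136 CPM in normal 1 to normal 5. SCC 1 was above each normal library, while SCC 2, SCC 3 and SCC 5 lay just under the normal range. Its log2 fold change was -0.11 (SE 0.39, edgeR adjusted p = 0.882) with all libraries, and -0.71 (SE 0.44, edgeR adjusted p = 0.369) with SCC 2 and SCC 5. Per kb of exon, where levels can be set between genes, Rsph4a averaged 26.1 CPM per kb in SCC and 25.4 CPM per kb in normal lung.

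Among the central pair genes Spag16 was lower and Hydin and Spag17 were not called. Spag16, a protein of the central apparatus, stood at 6.60, 0.813, 21.5, 13.0 and 0.408 CPM across SCC 1 to SCC 5, against 31.1, 43.1, 30.4, 8.87 and 50.1 CPM in normal 1 to normal 5. SCC 2 and SCC 5, with 3 counts and 1 count, lay far under each normal library, and normal 4 lay among the other SCC libraries. With these 2 libraries the log2 fold change was -5.72 (SE 1.04, edgeR adjusted p = 0.000804), and without either one the call held. With all libraries it was -2.11 (SE 0.76, edgeR adjusted p = 0.0472), a call lost without normal 3, SCC 1, SCC 2 or SCC 5 (edgeR adjusted p up to 0.0792).

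Hydin, a very large protein of the central pair, stood at 60.3, 33.1, 110, 115 and 27.8 CPM across SCC 1 to SCC 5, against 50.5, 49.9, 40.1, 49.8 and 55.6 CPM in normal 1 to normal 5. SCC 2 and SCC 5 lay below each normal library and the other SCC libraries above each of them. The log2 fold change was 0.36 (SE 0.42, edgeR adjusted p = 0.606) with all libraries and -0.82 (SE 0.50, edgeR adjusted p = 0.368) with SCC 2 and SCC 5. The receptor signal over its exons would give 53.3% of its counts in SCC 1, SCC 3 and SCC 4. Spag17 stood at 31.3 ± 25.0 CPM in SCC and 28.15 ± 10.01 CPM in normal lung (SD, n = 5 each) and was not called.

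Spag6l had no count in any normal library and 4.71, 0.542, 12.1, 6.97 and 1.63 CPM across SCC 1 to SCC 5, at least 26.2-fold higher in SCC when 3 counts over the 5 normal libraries are taken as the floor (17.5-fold when SCC 3 is left out). Its near-identical copy Spag6 had 57 counts in SCC and 226 in normal lung, so the division of reads between the copies is uncertain. The receptor signal would give 90.9% of the Spag6l counts in SCC 1, SCC 3 and SCC 4.

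The doublet lumen genes, which encode tektins and other proteins inside the microtubule wall, had low counts. Cfap126, the member of highest CPM in normal lung, stood at 4.71, 1.63, 10.5, 4.98 and 0 CPM across SCC 1 to SCC 5, against 5.37, 5.47, 22.9, 3.86 and 17.8 CPM in normal 1 to normal 5. Both SCC 2 and SCC 5 lay below each normal library, and the other SCC libraries overlapped with them. The log2 fold change was -3.78 (SE 1.40, edgeR adjusted p = 0.0979) with SCC 2 and SCC 5. The tektins Tekt1, Tekt2 and Tekt4 averaged 7.59, 10.3 and 6.14 CPM in SCC and 5.49, 1.88 and 4.82 CPM in normal lung. Tekt2 was higher with SCC 1, SCC 3 and SCC 4 (log2 fold change 2.58, SE 0.95, edgeR adjusted p = 0.0317), where the receptor signal would give 32.4% of its counts. Cfap45, Fam183b and 1110017D15Rik averaged 8.92, 1.37 and 6.41 CPM in SCC and 7.89, 5.45 and 9.11 CPM in normal lung, with no call in any comparison with normal lung.

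The remaining genes mark ciliated cells without belonging to 1 axonemal structure, and their summed CPM was 0.131 times the normal mean in SCC 2 and SCC 5 and 0.408 times it in the other SCC libraries. Tppp3 and Cdhr3 made up most of that normal sum. Summed over the other 4 genes the level was 0.176 times the normal mean of 48.1 CPM in SCC 2 and SCC 5, and 1.07 times it in SCC 1, SCC 3 and SCC 4. In those 3 libraries the receptor signal would give 22.2% of the Dynlrb2 counts, 36.1% for Ak7, 125% for Lrriq1 and 183% for Tmem212. Tppp3, a tubulin polymerization promoting protein (chr8:105467493-105471526, minus strand, in the GENCODE annotation of GRCm38), stood at 6.60, 15.7, 6.06, 13.0 and 4.90 CPM across SCC 1 to SCC 5, against 80.2, 80.0, 137, 109 and 94.7 CPM in normal 1 to normal 5. Each SCC library lay far under each normal library. The receptor signal over its exons would give 76.3% of the Tppp3 counts in SCC 1, SCC 3 and SCC 4, and 8.38% in SCC 2 and SCC 5. The log2 fold change was -3.56 (SE 0.44, edgeR adjusted p = 2.21e-06) with all libraries, and the call held without each library in turn. It was -3.42 (SE 0.55, edgeR adjusted p = 0.000226) with SCC 2 and SCC 5. Per kb of exon Tppp3 averaged 5.0 CPM per kb in SCC and 54.2 CPM per kb in normal lung, the highest of the 35 genes there.

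Cdhr3, a cadherin-family protein at the ciliated cell surface that serves in humans as the receptor of rhinovirus C, stood at 15.1, 5.42, 14.9, 20.9 and 6.53 CPM across SCC 1 to SCC 5, against 43.3, 38.3, 45.6, 23.9 and 50.8 CPM in normal 1 to normal 5. The groups did not overlap, with SCC 4 and normal 4 nearest to each other. The receptor signal over its exons would give 59.0% of the Cdhr3 counts in SCC 1, SCC 3 and SCC 4, and 26.0% in SCC 2 and SCC 5. The log2 fold change was -1.83 (SE 0.51, edgeR adjusted p = 0.0108) with all libraries, and the call held without each library in turn. In SCC 2 and SCC 5 it was -2.86 (SE 0.68, edgeR adjusted p = 0.00841), a call lost without SCC 2 (edgeR adjusted p = 0.0602).

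Tmem212, a small transmembrane protein, stood at 0, 0, 1.10, 2.99 and 0 CPM across SCC 1 to SCC 5, against 2.51, 6.15, 2.35, 12.7 and 4.80 CPM in normal 1 to normal 5. SCC 1, SCC 2 and SCC 5 had no count, and SCC 4 alone overlapped with normal lung. It was at least 11.7-fold lower in SCC 2 and SCC 5 against a floor of 3 counts over both libraries (edgeR adjusted p = 0.0404), a call lost without SCC 2, SCC 5 or normal 4. Dynlrb2, a dynein light chain, averaged 6.10 ± 6.76 CPM in SCC and 12.8 ± 11.8 CPM in normal lung (SD, n = 5 each). Lrriq1 averaged 1.09 CPM in SCC 2 and SCC 5 and 13.1 CPM in the other SCC libraries, against 11.1 CPM in normal lung, with a log2 fold change of -3.43 (SE 1.29, edgeR adjusted p = 0.106) in SCC 2 and SCC 5. Ak7, an adenylate kinase of the axoneme, averaged 5.36 CPM in SCC 2 and SCC 5 and 28.2 CPM in the other SCC libraries, against 18.4 CPM in normal lung, with a log2 fold change of -1.92 (SE 0.88, edgeR adjusted p = 0.198) in SCC 2 and SCC 5. None of these 3 was called in any comparison with normal lung.

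**Figure D4:**
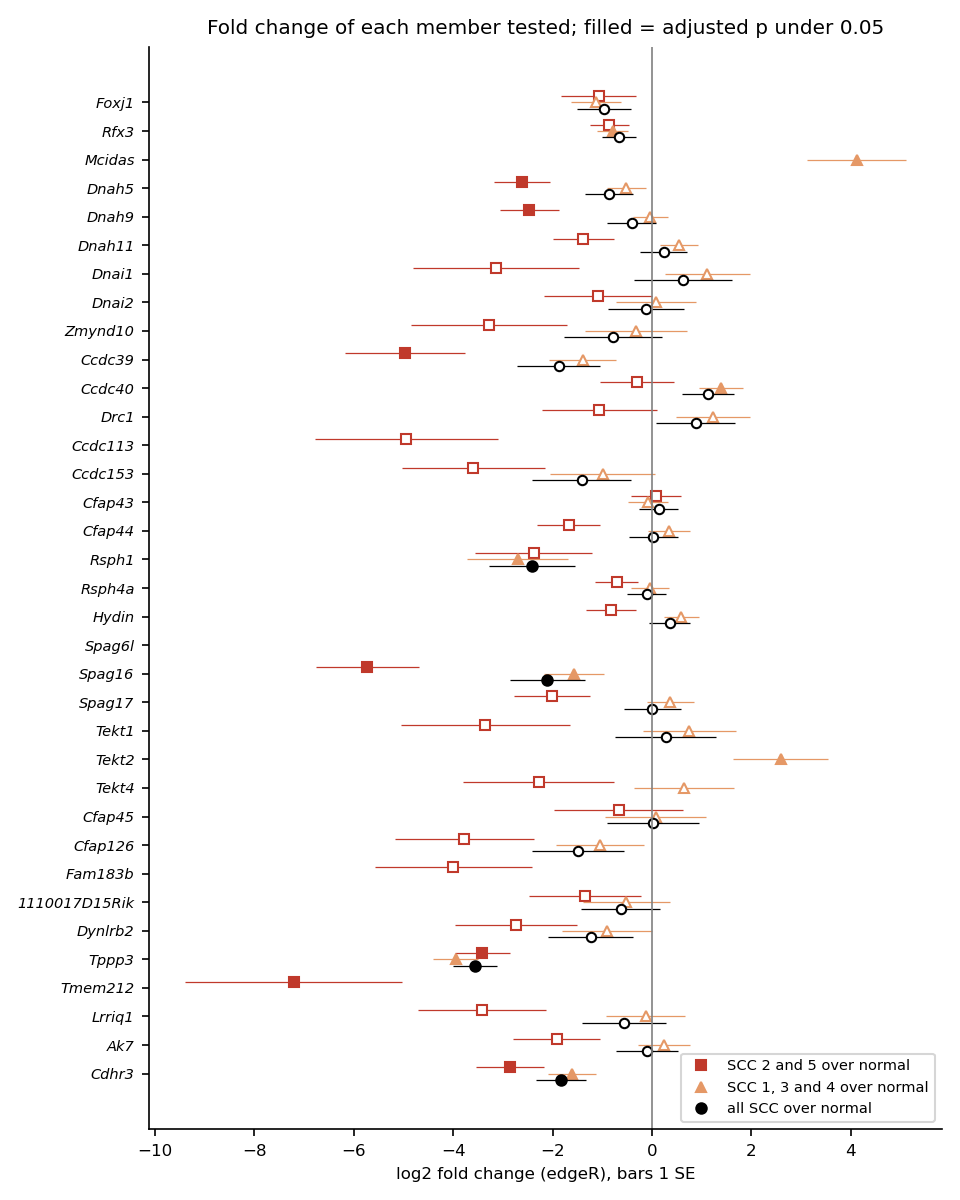
Log2 fold change of each gene tested, with bars of 1 SE, for SCC 2 and SCC 5 over normal lung (red squares), SCC 1, SCC 3 and SCC 4 over normal lung (orange triangles) and all SCC over normal lung (black circles); filled symbols have an adjusted p under 0.05. The red squares lie left of 0 for 31 of 32 genes, against 7131 of 14305 of all genes tested. The fitted value of Tmem212, which had no count in SCC 2 and SCC 5, is no bound on its fold.

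Levels per kb of exon show how close many of these genes lay to the receptor signal. In SCC 1, SCC 3 and SCC 4 the receptor signal over a gene's exons would give at least 50% of the counts for 22 of the 35 genes, with a median of 58.1%. In SCC 2 and SCC 5 this held for 17 genes (median 40.2%), and in normal lung for 1, Spag6l, which had no count there (median 1.12%). For some genes this amount exceeded the counts themselves, so it can overstate the background of a gene. Examples are Ccdc113 (409%), Spag16 (373%) and Ccdc39 (286%) in SCC 2 and SCC 5, and Tmem212 (183%) and Rsph1 (160%) in SCC 1, SCC 3 and SCC 4. When the receptor signal over its exons was subtracted from every gene and library, down to 0 at most, 21 of the 35 genes still passed the filter. Of these 4 were lower and 0 higher in SCC by edgeR, against 6.85% lower and 8.12% higher of 11537 genes. The 4 were Tppp3, Cdhr3, Spag16 and Ccdc39, and at an unadjusted p under 0.05 edgeR put 6 lower and 1 higher, against 12.7% lower and 14.4% higher of all genes. The median of the 21 was -0.85. With the subtraction scaled to coding length, an alternative added after seeing the data, 4 genes were also lower and 0 higher. Dnah5 was then called (log2 fold change -2.19, edgeR adjusted p = 0.0313) and Spag16 was not (-2.83, edgeR adjusted p = 0.0637), while Tppp3, Cdhr3 and Ccdc39 were called in both.

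**Figure D5:**
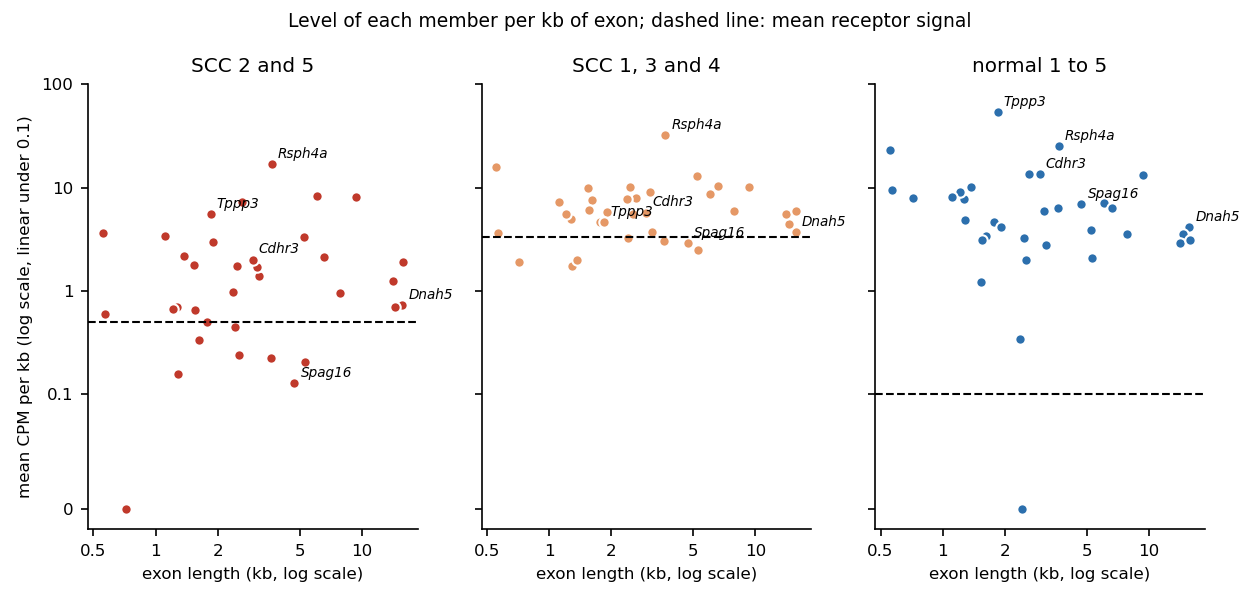
Mean CPM per kb of exon of each gene (log scale, linear under 0.1) against its exon length in kb (log scale) in SCC 2 and SCC 5 on the left, in SCC 1, SCC 3 and SCC 4 in the middle and in normal lung on the right; the dashed line is the mean receptor signal of those libraries. Many points gather near the line in the middle panel, Rsph4a is well above it in each panel, and Tppp3 is the highest point in normal lung at 54.2 CPM per kb.

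Other genes of the cilium and of its cells were read from further lists, whose counts with SCC 2 and SCC 5 stand against 5.16% lower and 4.14% higher of all genes by edgeR and, at an unadjusted p under 0.05, 11.7% lower and 10.5% higher. In SCC 2 and SCC 5 against normal lung, 2 of 17 tested genes of the inner dynein arm and nexin link were lower and none higher by edgeR, with 6 lower and 0 higher at an unadjusted p under 0.05 and a median log2 fold change of -1.51. They were the heavy chain Dnah6 (-2.89, SE 0.61, edgeR adjusted p = 0.00333) and the light chain Dnali1 (-4.40, SE 1.35, edgeR adjusted p = 0.0424). Of 31 tested genes of intraflagellar transport, which carries cargo along the cilium, and of the BBSome, an adaptor of that transport, 1 was lower and 0 higher, with 2 lower and 0 higher at an unadjusted p under 0.05 and a median of -0.69. It was Ift20, at -3.47 (SE 1.01, edgeR adjusted p = 0.0313). By edgeR 0 were called of 11 docking and assembly genes (median -1.21), 8 further radial spoke genes (-1.67), 10 further central pair genes (-1.35) and 10 further doublet lumen genes (-0.64). At an unadjusted p under 0.05 the counts in these 4 lists were 1, 2, 2 and 0 lower and 0 higher in each.

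With all libraries, the calls in these lists are set against 8.68% lower and 12.5% higher of all genes, and the genes were named after their values had been seen. Of 9 tested further central pair genes 1 was higher and 0 lower. It was Cfap74, at 205, 31.7, 319, 324 and 40.0 CPM across SCC 1 to SCC 5, against 14.7, 17.8, 13.2, 15.8 and 30.9 CPM in normal 1 to normal 5. Each SCC library lay above each normal one, SCC 2 only just above normal 5. The log2 fold change of Cfap74 was 3.19 (SE 0.55, edgeR adjusted p = 0.000138), with 3.83 (SE 0.69, edgeR adjusted p = 0.000986) after subtraction of the receptor signal and 0.85 (SE 0.63, edgeR adjusted p = 0.482) with SCC 2 and SCC 5.

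Of 17 tested genes of the inner dynein arm and nexin link, 1 was lower and 1 higher. Dnah6 was lower (log2 fold change -1.35, SE 0.49, edgeR adjusted p = 0.0497). Dnah7b was higher (1.65, SE 0.54, edgeR adjusted p = 0.0285), but 0.69 after the subtraction (SE 0.88, edgeR adjusted p = 0.677), and its reads may be split with near-identical copies. Of 28 tested genes of intraflagellar transport and the BBSome, 1 was lower, Ift20 (-2.34, SE 0.72, edgeR adjusted p = 0.0204), and 2 were higher, Ift46 (1.74, SE 0.51, edgeR adjusted p = 0.0152) and Bbs1 (2.23, SE 0.72, edgeR adjusted p = 0.0262). After the subtraction Bbs1 was not called (edgeR adjusted p = 0.112).

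Regulators of multiciliation and centriole amplification had a median above 0. In SCC 2 and SCC 5 it was 0.55 over 13 tested genes, with 0 called by edgeR and 0 at an unadjusted p under 0.05. With all libraries 4 of 12 were higher and 0 lower, against 12.5% and 8.68% of all genes. They were Foxn4 (3.33, SE 0.88, edgeR adjusted p = 0.0071), Plk4, the kinase that starts centriole duplication also in dividing cells (2.35, SE 0.80, edgeR adjusted p = 0.0357), Trp73 (2.11, SE 0.73, edgeR adjusted p = 0.0381) and Cep152 (1.83, SE 0.64, edgeR adjusted p = 0.041). After subtraction of the receptor signal 1 of 9 tested was higher, Foxn4 (3.57, SE 1.03, edgeR adjusted p = 0.0254), against 8.12% of all genes. Trp73 (edgeR adjusted p = 0.145) and Cep152 (edgeR adjusted p = 0.262) were then not called, and Plk4 did not pass the filter.

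Club cells, the secretory neighbours of ciliated cells in mouse airways, had 10 markers in the table. Their summed level was 3997, 11040, 3015, 3444 and 2282 CPM across SCC 1 to SCC 5 and 12870 to 18270 CPM in normal lung, so each SCC library lay below each normal one. Without Scgb1a1, the main club cell secretory protein, the sum was 3911, 10818, 2527, 2943 and 2239 CPM across SCC 1 to SCC 5 and 5357 to 6764 CPM in normal lung. SCC 2 then lay above each normal library and the other SCC libraries below each. In SCC 2 and SCC 5, 3 of the 10 were lower and 1 higher, with Scgb1a1 at -6.35 (SE 0.59, edgeR adjusted p = 3.12e-07). The higher one was Gabrp, a GABA receptor subunit, at 2.79 (SE 0.38, edgeR adjusted p = 3.45e-05). Bpifa1, a secreted airway protein, averaged 768 CPM in SCC and 11.8 CPM in normal lung. It ranged widely, at 32, 1787, 735, 817 and 467 CPM across SCC 1 to SCC 5. SCC 1 lay below normal 5, at 52.8 CPM, and Bpifa1 was not called with SCC 2 and SCC 5. In the same comparison 9 of 10 alveolar markers were lower, with Slc34a2 at -4.38 (SE 0.40, edgeR adjusted p = 1.99e-07). The other 1, Aqp5, was higher, at 717 and 846 CPM in SCC 2 and SCC 5, against a mean of 104 CPM in normal lung. Of 8 squamous and basal markers 7 were higher, among them Dsg3, which had no count in normal lung. The part of these marker levels in the lower levels of the cilium genes called was not tested.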

How the data were processed

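The authors deposited whole-number read counts per gene symbol, 1 column for each of 10 libraries, with no normalization. The genome build was mm10, and the tools were TopHat2 2.0.1, cutadapt 1.9.1, DESeq2 and HTSeq 0.6.1, per the submitters' processing notes. How reads with several matches were handled, and whether strand was used, is not given in the sources. Exons of 8 of the 35 genes overlap a gene on the other strand.

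Counts were tested in R 4.3.3 with edgeR 4.0.16 (filterByExpr, TMM factors, robust quasi-likelihood fit, Benjamini-Hochberg adjustment over all genes tested, called under 0.05). The test was checked on simulated data. CPM scale each count to the library's total. The receptor signal is the count on 1439 odorant and vomeronasal receptor genes per kb of coding length, each gene capped at the 98th percentile. Gene lengths came from the GENCODE annotation of GRCm38, the assembly of mm10, which matched 24046 genes by symbol. Intervals and floors cover counting error only. Alternatives were DESeq2 size factors, the DESeq2 1.42.0 Wald test, other filters, subtraction of the receptor signal, that signal as a covariate, subsets of the SCC libraries and leaving out each library. Subtraction by coding length was added after the data had been seen.

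Values in every library are given for genes called with all libraries or with SCC 2 and SCC 5, for the gene of highest CPM in normal lung in each structure, and for Foxj1, Rfx3 and Mcidas. Values of Ccdc40 and of Spag6l were added after they had been seen, as were single calls in SCC 1, SCC 3 and SCC 4 and in further lists. From each further list the gene of smallest p in SCC 2 and SCC 5 is named if called. The genes, lists and split of the SCC libraries were chosen with earlier results of these data known. No pair of libraries within a group agreed within sampling noise, but SCC 3 and SCC 4 were by far the most alike. Chi-square divided by its degrees of freedom was 2.93 for them. It was 11.5 for the next lowest pair, SCC 1 and SCC 4, and 62.1 for the highest, SCC 2 and SCC 3. This value also grows with read depth, so pairs of unlike depth cannot be ranked strictly by it. In SCC the total count was highest in SCC 2 and lowest in SCC 1 and SCC 4. Whether SCC 3 and SCC 4 came from the same animal was not tested, so they may not be independent replicates.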

Additional observations from a re-analysis of the deposited data

Results flagged for a closer look

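In groups of 5 libraries, 65 sets of values with at least 20 counts were examined for 1 library far from the others, and chance marks about 1 set in 20. It was found in 3. Rsph1, of the radial spoke head, stood at 39 CPM in normal 4, against 2.73 to 10.7 CPM in the other normal libraries. Cfap45, of the doublet lumen, stood at 1.63 CPM in SCC 5, against 9.75 to 12.9 CPM in the other SCC libraries. Dynlrb2, a dynein light chain, stood at 17.9 CPM in SCC 1, against 1.63 to 5.5 CPM in the other SCC libraries.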

How the results depend on the processing

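With all libraries 4 genes were lower, 0 higher and 2791 of all genes called. The counts lower moved to 2 with DESeq2 size factors, where Spag16 (adjusted p = 0.0592) and Rsph1 (adjusted p = 0.0542) were lost, to 8 with no filter and to 7 with SCC 2 and SCC 5 alone, and were 2 to 5 leaving out 1 library (2 without normal 3, SCC 1 or SCC 5). The counts higher moved to 2 with no filter, 1 with a filter of 1 CPM in 5 libraries, 3 with the DESeq2 Wald test, 3 with SCC 1, SCC 3 and SCC 4 alone, and were 0 to 1 leaving out 1 library (1 without SCC 2). With no filter 9.04% of 22919 genes were lower and 23.9% higher. The count of all genes called moved to 7542 with no filter, 4697 with the 1 CPM filter, 7654 with the DESeq2 Wald test, 1727 with the receptor signal subtracted, 823 with it as a covariate, 1330 with SCC 2 and SCC 5 alone and 6768 with SCC 1, SCC 3 and SCC 4 alone, and was 2313 to 3534 leaving out 1 library. With SCC 2 and SCC 5 over normal lung, 7 genes were lower, 0 higher and 1330 of all genes called. The DESeq2 Wald test gave 15 lower, and leaving out 1 library gave 5 to 7 lower, 0 higher and 796 to 1423 of all genes (796 without SCC 5). Leaving out SCC 2 or SCC 5 there leaves 1 SCC library, which is assumed to vary like the normal ones. The cause of these moves was not tested. The fold changes of the 8 genes called lower, the set recomputed gene by gene, kept their sign under the alternatives run. No paired analysis was possible because the replicate numbers were given in accession order and tie no SCC library to a normal library. Genes near 3 counts per library, 2.83 CPM in SCC 1 and 2.99 CPM in SCC 4, were at the limit of the depth.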
